A study of Mus musculus with 8 samples.

Results

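Creatine and adenylate kinases buffer the energy supply of muscle, and messenger RNA of 9 genes of this system was followed in mouse hearts: the creatine kinases Ckm, Ckb, Ckmt2 and Ckmt1, the creatine synthesis enzymes Gatm and Gamt, the creatine transporter Slc6a8 and the adenylate kinases Ak1 and Ak4. The members were the probe sets that the array's annotation gives to these symbols, 17 of 45037 probe sets, and 9 of 18193 genes. Hearts came from female mice with a conditional deletion of a gene under MCK, the muscle creatine kinase promoter (knock-out, KO), and from wild-type (WT) littermates. The 4 groups were WT at 4 weeks, KO at 4 weeks, WT at 10 weeks and KO at 10 weeks, with 2 hearts and 1 Affymetrix array per heart in each. MCK is the promoter of Ckm itself, so the deletion was driven by the promoter of a gene of the set. The labels do not say whether WT mice carried a transgene, and they give no batch.

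Creatine kinase moves a phosphate between ATP and creatine. Mitochondrial isoenzymes make phosphocreatine where ATP is produced, and cytosolic isoenzymes turn it back into ATP at the contractile filaments and ion pumps. Adenylate kinase joins a pair of ADP molecules into ATP and AMP, and AMP in turn activates an energy-sensing kinase. Heart muscle makes little creatine and takes it up from blood, where it arrives mainly from synthesis in kidney and liver.

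At 10 weeks Ckm was lower and Slc6a8 higher in KO hearts, each by about the same amount on the log2 scale, and the other 7 genes did not pass the test. Values below are log2 of probe set intensity, and a gene "passed" where its p from limma, after Benjamini-Hochberg adjustment across the 18193 genes, was under 0.05. At 10 weeks 2 of the 9 genes passed, where 12.1% of all genes did (6.89% lower and 5.19% higher). At 4 weeks 0 of the 9 passed, where 0.0275% of all genes did. An unadjusted p under 0.05 was reached by 0 of the 9 genes at 4 weeks (3.73% of all genes) and by 5 at 10 weeks (23.6% of all genes). The median difference over the 9 genes was 0.07 at 4 weeks and -0.34 at 10 weeks, beside 0.01 and 0.00 over all genes.

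**Figure D1:**
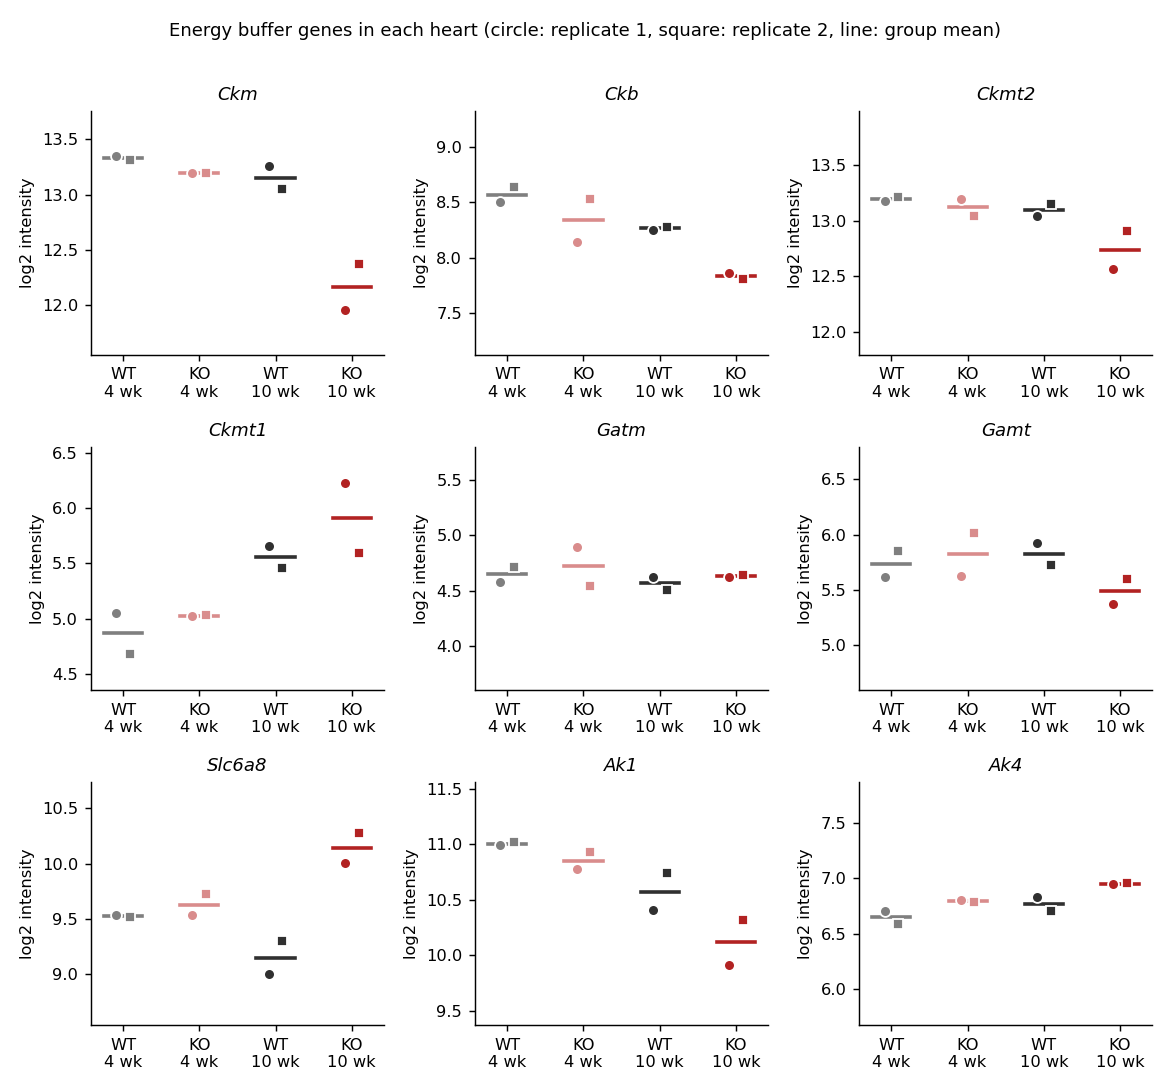
Log2 intensity of the brightest probe set of each of the 9 genes in the 8 hearts, by genotype and age, with every panel spanning the same number of log2 units. Circles are replicate 1, squares replicate 2 and lines group means, and the lowest Ckm and highest Slc6a8 values are those of the 10-week KO hearts.

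Of the total variance 51.9% lay on a first principal component that set the 10-week KO hearts against the other 6, and on the second component replicate 1 of the 10-week WT hearts stood apart. With that array left out the same 2 members passed at 10 weeks, and its values for kidney and liver markers are set beside Gatm and Gamt. All 8 listed cardiomyocyte markers were measured, with summed intensities from 85300 to 105300 over the 8 arrays, and 4 of them passed at 10 weeks, as given with the other marker lists.

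The cytosolic isoenzymes are the muscle form Ckm and the brain form Ckb. The 250 bases before their transcription starts, and before that of the sarcomeric mitochondrial form Ckmt2, are shown because these genes had the 3 lowest creatine kinase differences at 10 weeks and because the driver is named for the Ckm promoter. The sequences are from RefSeq on build GRCm38.p6, 5' to 3' on the gene's strand, at chr7:19410844-19411093 (plus strand) for Ckm, chr13:91876886-91877135 (minus strand) for Ckmt2 and chr12:111672339-111672588 (minus strand) for Ckb. Capitals mark TATA motifs (TATANA) and E-boxes (CANNTG, the motif bound by muscle basic helix-loop-helix factors), searched on both strands, and neighbouring matches run together.
Ckm: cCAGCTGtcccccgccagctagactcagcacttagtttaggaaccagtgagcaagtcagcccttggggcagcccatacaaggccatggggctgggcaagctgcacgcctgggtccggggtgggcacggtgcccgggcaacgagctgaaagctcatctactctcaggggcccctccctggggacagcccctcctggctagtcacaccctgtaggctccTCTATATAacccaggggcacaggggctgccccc
Ckmt2: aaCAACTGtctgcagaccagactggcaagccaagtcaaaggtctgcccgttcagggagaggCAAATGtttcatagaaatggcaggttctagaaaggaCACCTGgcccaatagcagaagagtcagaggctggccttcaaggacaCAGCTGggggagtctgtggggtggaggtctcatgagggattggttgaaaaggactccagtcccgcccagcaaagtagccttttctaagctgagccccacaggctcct
Ckb: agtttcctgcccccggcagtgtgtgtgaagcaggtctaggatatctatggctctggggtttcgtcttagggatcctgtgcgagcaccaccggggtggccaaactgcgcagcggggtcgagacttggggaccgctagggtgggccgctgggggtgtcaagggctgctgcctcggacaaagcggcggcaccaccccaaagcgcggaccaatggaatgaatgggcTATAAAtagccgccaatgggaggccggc
The Ckm window held 1 E-box and 2 overlapping TATA matches close to the start, that of Ckmt2 held 4 E-boxes and no TATA match, and that of Ckb held 1 TATA match and no E-box. Over the 32851 promoters of the table, 66.2% held an E-box and 22.6% a TATA match in the same window. The GC box GGGCGG was found in 32.7% of promoters and in the Ckmt2 window, 1 time. The nuclear receptor half-site AGGTCA was found in 14.0% of promoters and in none of these 3 windows.

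Ckm, whose product is the main cytosolic creatine kinase of adult muscle, fell in the older KO hearts. It read 13.35 and 13.31 in 4-week WT, 13.19 and 13.20 in 4-week KO, 13.26 and 13.05 in 10-week WT, and 11.96 and 12.38 in 10-week KO. The 10-week KO pair lay below every other heart, and the other 3 groups lay close together. KO minus WT at 10 weeks was -0.99 ± 0.15 (SE, n = 2 per group), a 1.98-fold lower level (95% interval -1.33 to -0.64, adjusted p = 0.00353). At 4 weeks it was -0.13 ± 0.15 (-0.48 to 0.21, adjusted p = 0.999), with both KO hearts below both WT hearts. The 10-week difference lay between -1.19 and -0.78 with any 1 array left out, and was -0.88 (adjusted p = 0.0118) without 10-week WT replicate 1.

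The second probe set of Ckm, 1444643_at, was far dimmer and showed less at 10 weeks. It read 6.38 and 6.62 in 10-week WT and 6.13 and 6.48 in 10-week KO, values that overlap, with a difference of -0.20 ± 0.16 (adjusted p = 0.575, every probe set tested singly). With the mean of the 2 probe sets Ckm still passed, at -0.59 (adjusted p = 0.0229). At 4 weeks 1444643_at was at -0.25 ± 0.16, with both KO hearts below both WT hearts. Its KO difference changed by 0.05 ± 0.23 between the ages, so it did not share the later fall of the bright set. The array annotation gives a RefSeq transcript for the probe set used, 1417614_at, and another sequence record for the dim one.

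Ckb, the cytosolic form of brain that is also made in heart, was lower in 10-week KO hearts without passing. It read 8.50 and 8.64 in 4-week WT, 8.15 and 8.53 in 4-week KO, 8.25 and 8.28 in 10-week WT and 7.87 and 7.81 in 10-week KO. The 10-week KO pair again lay below all other hearts, at a difference of -0.43 ± 0.15 (-0.76 to -0.10, adjusted p = 0.0976). At 4 weeks the groups overlapped, at -0.23 ± 0.15 (adjusted p = 0.999). Its 1 probe set gave between -0.46 and -0.40 at 10 weeks with any 1 array left out.

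Since both cytosolic forms read lower in 10-week KO hearts, Ckb without passing, their balance within each array was compared. Log2 Ckb minus log2 Ckm changed by -0.10 from WT to KO at 4 weeks and by 0.56 at 10 weeks, where both KO hearts (-4.09 and -4.57) lay above both WT hearts (-5.01 and -4.77). Only these changes can be read, because the 2 probe sets differ in brightness for reasons other than RNA level. Over both ages the mean change was 0.23, with an exact two-sided permutation p = 0.278 for 4 KO against 4 WT hearts permuted within age, a design whose smallest p is 0.0556.

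The mitochondrial isoenzymes are Ckmt2, the form of sarcomeric muscle, and Ckmt1, the ubiquitous form. Ckmt2 read 13.18 and 13.21 in 4-week WT, 13.20 and 13.05 in 4-week KO, 13.04 and 13.15 in 10-week WT and 12.57 and 12.91 in 10-week KO. The 10-week KO hearts were the lowest of the 8, with replicate 1 below replicate 2 as for Ckm. The difference was -0.36 ± 0.14 (-0.68 to -0.04, adjusted p = 0.16) at 10 weeks and -0.07 ± 0.14 (adjusted p = 0.999) at 4 weeks. It was -0.19 without 10-week KO replicate 1 and -0.53 without replicate 2, so the size rests on which of the 2 hearts is kept, and repeated quantile normalization gave -0.22.

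Ckmt1 was dim, and its 2 probe sets gave different calls at 10 weeks. The brighter one, 1432418_a_at, read 5.05 and 4.68 in 4-week WT, 5.02 and 5.03 in 4-week KO, 5.65 and 5.46 in 10-week WT and 6.23 and 5.59 in 10-week KO. WT and KO overlapped at both ages, with a difference of 0.35 ± 0.21 (-0.12 to 0.82, adjusted p = 0.367) at 10 weeks and 0.03 without KO replicate 1. The other, 1417089_a_at, read 4.21 and 4.01, then 3.94 and 3.84, then 4.18 and 4.14, and 5.07 and 4.87 in the same order of groups. It rose by 0.81 ± 0.13 in 10-week KO, 1.76-fold (adjusted p = 0.00427 with every probe set tested singly, where 9.84% of 34945 probe sets passed), with both KO hearts above every other heart. With the mean of the 2 probe sets Ckmt1 passed at 0.58 (adjusted p = 0.0429). The call of 1417089_a_at held with each array left out, at 0.71 to 0.91.

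**Figure D2:**
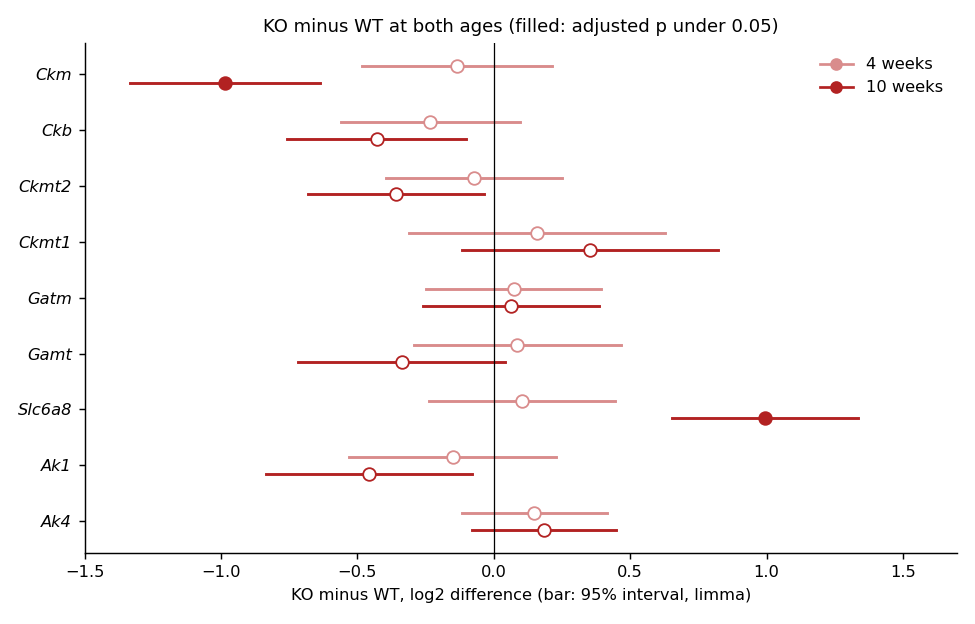
KO minus WT as a log2 difference for each of the 9 genes at 4 weeks (light) and 10 weeks (dark), with 95% intervals from limma. Filled circles have an adjusted p under 0.05, which only Ckm, at -0.99, and Slc6a8, at 0.99, reached, both at 10 weeks.

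Slc6a8, the transporter that brings creatine into the cell, was higher in KO than in WT hearts at 10 weeks on both of its probe sets. The brighter, 1417116_at, read 9.53 and 9.52 in 4-week WT, 9.54 and 9.72 in 4-week KO, 9.0 and 9.30 in 10-week WT and 10.01 and 10.28 in 10-week KO. The 10-week KO pair was above all other hearts and the 10-week WT pair below all others. The difference at 10 weeks was 0.99 ± 0.15, 1.99-fold (0.65 to 1.33, adjusted p = 0.00305), and 0.10 ± 0.15 (-0.24 to 0.44, adjusted p = 0.999) at 4 weeks. With any 1 array left out it lay between 0.84 and 1.15 and passed each time, at 0.84 (adjusted p = 0.00947) without 10-week WT replicate 1.

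The second Slc6a8 probe set, 1448596_at, gave the same direction with more spread. It read 8.08 and 8.04 in 4-week WT, 8.33 and 8.17 in 4-week KO, 7.80 and 8.26 in 10-week WT and 8.59 and 8.97 in 10-week KO. Its difference at 10 weeks was 0.75 ± 0.18, 1.69-fold (adjusted p = 0.0278 with every probe set tested singly). That call was lost without 10-week WT replicate 1 (0.52, adjusted p = 0.108) and without 10-week KO replicate 2 (0.57, adjusted p = 0.185). It was also lost without either 4-week WT array (adjusted p = 0.0638) or either 4-week KO array (adjusted p = 0.0502), where the difference itself is unchanged by construction.

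Markers of other cell types moved with the 10-week KO hearts, at an age where 5.19% of all genes passed as higher and 6.89% as lower. Of 6 fibroblast markers 5 were higher, with summed intensities of 5251 to 6985 in WT and 11860 and 11520 in KO, and of 6 macrophage markers 5 were higher, with sums of 1878 to 2034 and 5167 to 6165. Of 8 cardiomyocyte markers 3 were lower (Ryr2 at -1.27, Pln at -0.66 and Tnni3 at -0.52) and 1 higher (Mybpc3 at 0.98), and the sums overlapped, at 86500 to 102900 in WT and 85300 to 95610 in KO. In whole hearts fewer cells of a type and less RNA per cell cannot be told apart. The part of these shifts in the lower Ckm and higher Slc6a8 of KO hearts was not tested. Of 8 skeletal muscle markers, which include Ckm, 2 were higher (Acta1 and Tnnt3) and 1 lower (Ckm itself). The summed intensity of the 7 without Ckm was 1715 and 2089 in 10-week WT and 7408 and 11610 in KO. Most of that sum was Acta1, skeletal actin that the loaded heart also makes, which rose by 2.45 ± 0.22 (adjusted p = 0.00025). Tnnt3, the fast muscle troponin T, rose by 0.69 ± 0.18 (adjusted p = 0.0359), from 3.96 and 3.74 in WT to 4.82 and 4.26 in KO, and the fast myosin light chain Mylpf was at -0.53 ± 0.16 (adjusted p = 0.0674). The skeletal myosins Myh1, Myh2 and Myh4 lay between 3.15 and 5.43 on all arrays. Of 4 nerve markers Uchl1 rose by 2.23 ± 0.18, and Snap25 lay between 3.08 and 3.35. Of 5 atrial markers 1 was higher (Nppa at 1.04) and 1 lower (Sln at -2.35) at 10 weeks, with Myl7 at -1.56, Myl4 at -0.82 and Bmp10 at 0.32 not passing. At 4 weeks all 5 had KO hearts above WT hearts, by 0.62 to 1.80, and 0 passed. Their summed intensity was 6368 and 9362 in 4-week WT, 13280 and 28260 in 4-week KO, 16080 and 24340 in 10-week WT and 23820 and 23530 in 10-week KO. Smooth muscle had 1 of 6 higher, endothelium 1 of 6 higher, brown fat 0 of 5 and red cells 1 of 3 lower.

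The synthesis enzymes showed no change that passed. Gatm, which makes the creatine precursor guanidinoacetate and is rich in kidney, read between 4.51 and 4.89 on all 8 arrays, and WT and KO overlapped at both ages. Its difference was 0.07 ± 0.14 (-0.25 to 0.39) at 4 weeks and 0.06 ± 0.14 (-0.26 to 0.38) at 10 weeks. Gamt, which methylates guanidinoacetate to creatine, read 5.93 and 5.73 in 10-week WT and 5.38 and 5.6 in 10-week KO, with the KO pair lower at -0.34 ± 0.17 (-0.72 to 0.04, adjusted p = 0.275). At 4 weeks Gamt overlapped, at 5.62 and 5.85 in WT and 5.62 and 6.02 in KO, with a difference of 0.09 ± 0.17 (adjusted p = 0.999).

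Markers of kidney and liver, the organs that make most creatine, varied between these hearts. Of 8 kidney markers 2 were lower and 0 higher in 10-week KO, where 6.89% of all genes were lower and 5.19% higher. Kap, an androgen-regulated kidney protein, fell by 2.70 ± 0.63 (adjusted p = 0.0218), from 9.73 and 7.29 in WT to 5.80 and 5.83 in KO. At 4 weeks Kap was at -1.61 ± 0.63 (adjusted p = 0.999), with 6.90 and 7.90 in WT and 5.96 and 5.61 in KO. Cubn, an endocytic receptor, fell by 0.64 ± 0.16 at 10 weeks (adjusted p = 0.0302), from 5.39 and 5.24 to 4.53 and 4.82. The summed intensity of the 8 kidney markers was 2395 to 2426 in 10-week WT and 1205 to 1441 in KO. Most of the sum was Aqp1, a water channel that endothelium also carries (10.30 and 10.94 in WT, 9.82 and 10.12 in KO), while the transporter Slc34a1 and the receptor Lrp2 lay between 3.75 and 4.34 on all arrays. Of 6 measured liver markers 0 passed, and their sum ran from 994 to 5284 in 10-week WT and from 551 to 742 in KO, and from 368 to 4844 in 4-week KO. Gatm was 4.62 on 10-week WT replicate 1, where the kidney gene Kap was 9.73, and 4.51 on replicate 2, where Kap was 7.29. Without replicate 1 the 10-week difference was 0.12 for Gatm and -0.24 for Gamt.

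Of the adenylate kinases, Ak1 is the cytosolic form of muscle and Ak4 a form of the mitochondrial matrix. Ak1 read 10.99 and 11.02 in 4-week WT, 10.78 and 10.93 in 4-week KO, 10.41 and 10.74 in 10-week WT and 9.91 and 10.32 in 10-week KO. Both KO hearts were below both WT hearts at each age. The difference was -0.15 ± 0.17 (adjusted p = 0.999) at 4 weeks and -0.46 ± 0.17 (-0.84 to -0.08, adjusted p = 0.124) at 10 weeks. It was -0.62 (adjusted p = 0.0572) without 10-week WT replicate 1 and -0.25 without KO replicate 1. The second probe set of Ak1 read between 3.88 and 4.10 on all arrays, with a difference of -0.03 ± 0.13 at 10 weeks, and the mean of both was at -0.24 (adjusted p = 0.231).

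The 5 probe sets of Ak4 went in different directions. The brightest, 1421831_at, read 6.71 and 6.59 in 4-week WT, 6.81 and 6.79 in 4-week KO, 6.83 and 6.70 in 10-week WT and 6.95 and 6.96 in 10-week KO, at differences of 0.15 ± 0.12 and 0.18 ± 0.12 that did not pass (adjusted p = 0.999 and 0.412). At nearly the same brightness, 1450387_s_at read 7.02 and 7.13 in 4-week WT against 6.18 and 6.40 in 4-week KO, a difference of -0.79 ± 0.21 (unadjusted p = 0.00404, adjusted p = 0.855). The dimmer 1421830_at read 5.53 and 5.76 against 4.79 and 4.89, at -0.80 ± 0.17 (unadjusted p = 0.000832, adjusted p = 0.53). Both of these had KO hearts below WT hearts at 4 weeks and neither passed, where 0.0258% of probe sets tested singly did. At 10 weeks they were at -0.37 ± 0.21 and -0.41 ± 0.17 (adjusted p = 0.373 and 0.182). With 1 array left out 1421830_at ran from -0.62 to -0.21, and it passed without 10-week WT replicate 1 (-0.62, adjusted p = 0.0493). The last 2 sets lay between -0.27 and 0.01 at the 2 ages. The mean of the 5 was -0.34 (adjusted p = 0.822) at 4 weeks and -0.19 (adjusted p = 0.267) at 10 weeks, so the sign of the Ak4 difference depends on the probe set.

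**Figure D3:**
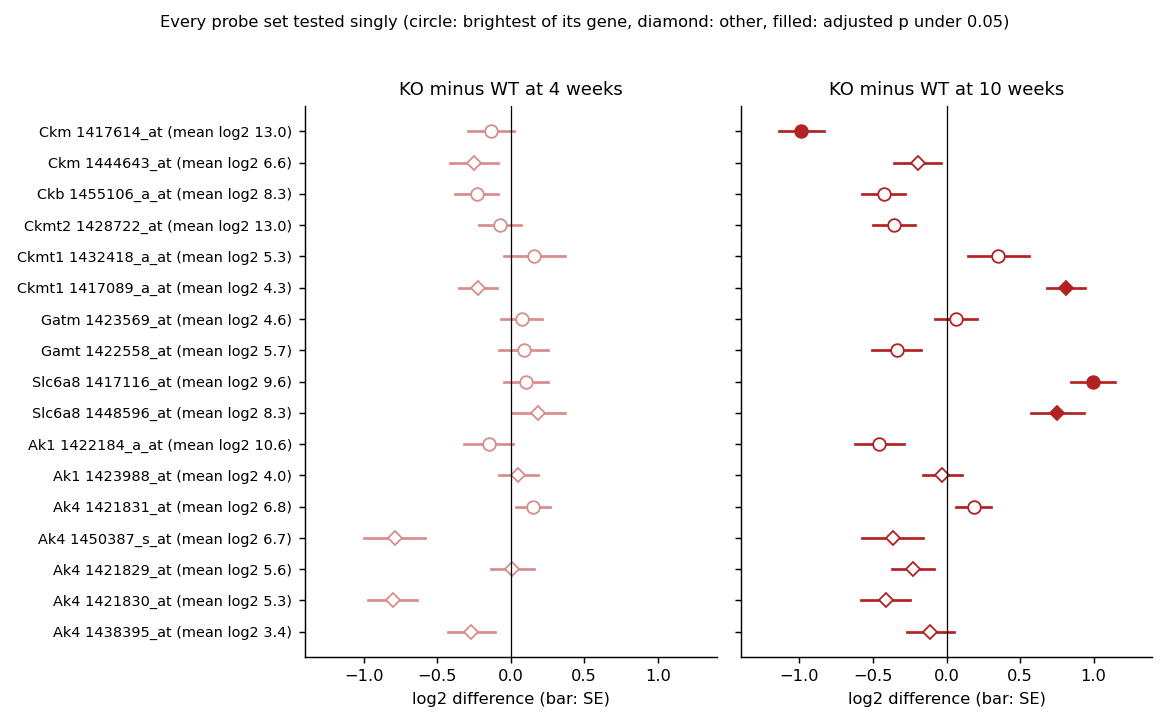
KO minus WT as a log2 difference with its SE for all 17 probe sets, each tested singly, at 4 weeks (left) and 10 weeks (right), with the mean log2 level of each probe set beside its name. Filled symbols passed, and both Slc6a8 sets lie near 0.75 to 0.99 at 10 weeks while the Ak4 sets fall on both sides of 0.

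Arrays of KO and WT did not overlap at 10 weeks for 7 of the 9 genes. They were lower for Ckm, Ckb, Ckmt2, Gamt and Ak1 (23.5% of all genes) and higher for Slc6a8 and Ak4 (23.7% of all genes). Each gene is read here from its brightest probe set, and the Ak4 sets 1421829_at and 1421830_at were lower without overlap. With 2 hearts per group such a separation is frequent, and 5 of these 7 genes did not pass the test.

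Whether the KO difference itself changed between the ages was tested as a difference of differences, and 0 of the 9 genes passed, where 2.08% of all genes did. Slc6a8 was nearest, at 0.89 ± 0.21 (0.41 to 1.37, adjusted p = 0.0751), then Ckm at -0.85 ± 0.22 (-1.35 to -0.36, adjusted p = 0.0928). These 2 genes had an unadjusted p under 0.05, at 0.00225 and 0.00344, as had 13.9% of all genes. Slc6a8 passed with the arrays quantile-normalized again (0.98, adjusted p = 0.0246). Without 10-week WT replicate 2 the values were 1.04 for Slc6a8 and -0.96 for Ckm. Slc6a8 passed in 3 of 18 alternatives, over which it ran from 0.73 to 1.04. Ckm passed in 1 of 18 and ran from -1.06 to -0.40. The 1417089_a_at set of Ckmt1, tested singly, passed at 1.04 ± 0.18 (adjusted p = 0.0312, where 1.36% of probe sets passed). That call was lost in 6 of 8 cases with 1 array left out, all but those without a 10-week WT array, with adjusted p up to 0.188.

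The ages were also compared within each genotype, where age and litter cannot be told apart. In WT 0 of the 9 genes passed (0.115% of all genes did). Ckmt1 was 0.69 ± 0.21 higher at 10 weeks (adjusted p = 0.215), Ak1 was at -0.43 ± 0.17 (adjusted p = 0.248) and Slc6a8 at -0.38 ± 0.15 (adjusted p = 0.251), the 3 with an unadjusted p under 0.05 (18.1% of all genes). In KO 3 passed, where 10.5% of all genes did (3.42% higher and 7.07% lower): Ckm fell by 1.03 ± 0.15 (adjusted p = 0.0036), Ak1 fell by 0.74 ± 0.17 (adjusted p = 0.024) and Ckmt1 rose by 0.88 ± 0.21 (adjusted p = 0.0277). Slc6a8 was at 0.51 ± 0.15 in KO (adjusted p = 0.0621), against -0.38 in WT. These values are from the brightest probe sets. In WT the second sets were at 0.04 ± 0.13 for Ckmt1, 0.08 ± 0.13 for Ak1, -0.03 ± 0.18 for Slc6a8 and -0.40 ± 0.16 for Ckm. In KO they were at 1.08 ± 0.13 for Ckmt1, -0.0016 ± 0.13 for Ak1, 0.53 ± 0.18 for Slc6a8 and -0.35 ± 0.16 for Ckm. With its probe sets averaged Ak1 lost its call in KO (-0.37, adjusted p = 0.0758). Ak1 and Ckmt1 lost these calls with some single arrays left out, leaving only Ckm without 4-week KO replicate 2 or without 10-week KO replicate 1. With either 10-week WT array left out Ckb and Slc6a8 were added. Their differences in KO, -0.50 and 0.51, do not involve those arrays and stayed the same. Only the shared estimate of the spread and the adjustment changed.

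The other genes of adenine nucleotide and creatine metabolism were read from 8 lists, of which 66 of 72 genes were measured. At 4 weeks 0 of the 66 passed, where 0.0275% of all genes did. At 10 weeks 8 were higher and 5 lower, 13 in all, where 12.1% of all genes passed (5.19% higher and 6.89% lower). The counts of the single lists below stand beside the same shares. Leaving out 10-week KO replicate 1 gave 8 genes and leaving out 10-week WT replicate 2 gave 22, and a fit of the 10-week arrays alone gave 8.

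Adenine nucleotide metabolism held the largest rise among the lists. Of 13 genes 2 were higher and 1 lower (median 0.02). Adssl1, the muscle adenylosuccinate synthase that rebuilds AMP from IMP, read 9.49 and 9.47 in 10-week WT and 11.13 and 11.16 in KO, a difference of 1.67 ± 0.11 or 3.18-fold (adjusted p = 5e-05). At 4 weeks it was 0.28 ± 0.11 (adjusted p = 0.999), and the difference between ages passed, at 1.39 ± 0.16 (adjusted p = 0.00438). Ada, adenosine deaminase, rose by 1.0 ± 0.16 from 4.46 and 4.46 to 5.70 and 5.23 (adjusted p = 0.00359). Nt5c2, a cytosolic nucleotidase, was at -0.76 ± 0.17 (adjusted p = 0.017), and its call was lost in 5 of 19 alternatives, among them its probe sets averaged (-0.30, adjusted p = 0.0915), without 10-week KO replicate 1 (-0.61, 0.124) and without WT replicate 1 (-0.67, 0.0578).

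The AMP-activated kinase list held subunits of the kinase and Stk11, which is not a subunit, and calls differed among them. Of 8 genes 2 were higher and 0 lower (median 0.01). The regulatory subunit Prkab2 read 6.51 and 7.01 in 10-week WT and 8.03 and 8.22 in KO, a rise of 1.36 ± 0.18 or 2.57-fold (adjusted p = 0.00157). Prkag2, the AMP-binding subunit known for inherited heart muscle disease, read 6.84 and 7.0 in WT and 7.94 and 8.07 in KO, a rise of 1.09 ± 0.15 (adjusted p = 0.00217), and still passed at 0.69 (adjusted p = 0.00738) with its probe sets averaged. Both also passed for the difference between ages, at 1.41 ± 0.26 (adjusted p = 0.0294) and 1.03 ± 0.22 (adjusted p = 0.0486). The catalytic subunit of muscle, Prkaa2, was at 0.19 ± 0.27.

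Among the phosphotransfer kinases 1 gene was higher and 2 were lower. Of 4 further adenylate kinases Ak3, which serves the matrix with GTP, fell by 0.73 ± 0.15 (adjusted p = 0.0113), from 10.01 and 10.27 to 9.33 and 9.49, and was at -0.65 (adjusted p = 0.0836) without 10-week KO replicate 1 and -0.73 (adjusted p = 0.0561) with only the 10-week arrays. The 9 other nucleotide kinases had a median difference of -0.38, beside 0.00 over all genes, with 1 higher, 1 lower and 7 not passing. Among them Nme1, a nucleoside diphosphate kinase, rose by 0.72 ± 0.11 (adjusted p = 0.00338), from 8.0 and 7.96 to 8.73 and 8.66. Cmpk2, a mitochondrial pyrimidine nucleotide kinase, fell by 0.68 ± 0.11 (adjusted p = 0.00458), from 6.17 and 6.13 to 5.51 and 5.44.

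The carriers between mitochondrion and cytosol mostly did not pass. Of 6 genes Slc25a5, the widely expressed ADP/ATP carrier, was higher by 0.58 ± 0.15 (adjusted p = 0.0313), at 11.90 and 12.28 in 10-week WT and 12.71 and 12.64 in KO. That call was lost in 8 of 19 alternatives, with 0.39 (adjusted p = 0.128) without 10-week WT replicate 1 and 0.30 (0.223) without the probe sets that can match several transcripts. The carrier of heart and muscle, Slc25a4, was at -0.04 ± 0.12 (-0.31 to 0.23), and the outer membrane channel Vdac1 at -0.01 ± 0.18.

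In arginine and methyl supply 1 of 11 genes passed. Mat2b, the regulatory subunit of the enzyme that makes S-adenosylmethionine, fell by 1.01 ± 0.15 (adjusted p = 0.00246), from 9.81 and 9.39 to 8.56 and 8.63. At 4 weeks Mat2b was at -0.37 ± 0.15 (adjusted p = 0.999).

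At the M-band, where muscle creatine kinase sits in the sarcomere, 1 of 5 genes was higher and 1 lower. Fhl2, a LIM protein reported to anchor metabolic enzymes to titin, fell by 1.09 ± 0.14 (adjusted p = 0.00113), from 12.98 and 12.98 to 11.72 and 12.06. Myom2, M-protein, was higher by 1.09 ± 0.25 (adjusted p = 0.0213), at 11.39 and 12.32 in 10-week WT and 12.82 and 13.06 in KO. Without 10-week WT replicate 1 the difference was 0.62 (adjusted p = 0.0315), and without WT replicate 2 it was 1.55. Its call was lost without 10-week KO replicate 1 (1.21, adjusted p = 0.0719) or 2 (0.97, 0.132), without either 4-week WT array (0.0501) and with only the 10-week arrays (0.101).

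Of 10 transcription factors of muscle and mitochondrial genes 1 passed. Gata4 was higher by 1.0 ± 0.26 (adjusted p = 0.0377), at 7.01 and 7.98 in 10-week WT and 8.35 and 8.65 in KO. It passed in 9 of 19 alternatives, and without 10-week WT replicate 1 was at 0.52 (adjusted p = 0.0875). The other 9, which include the Mef2 and Srf factors of muscle promoters, did not pass.

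**Figure D4:**
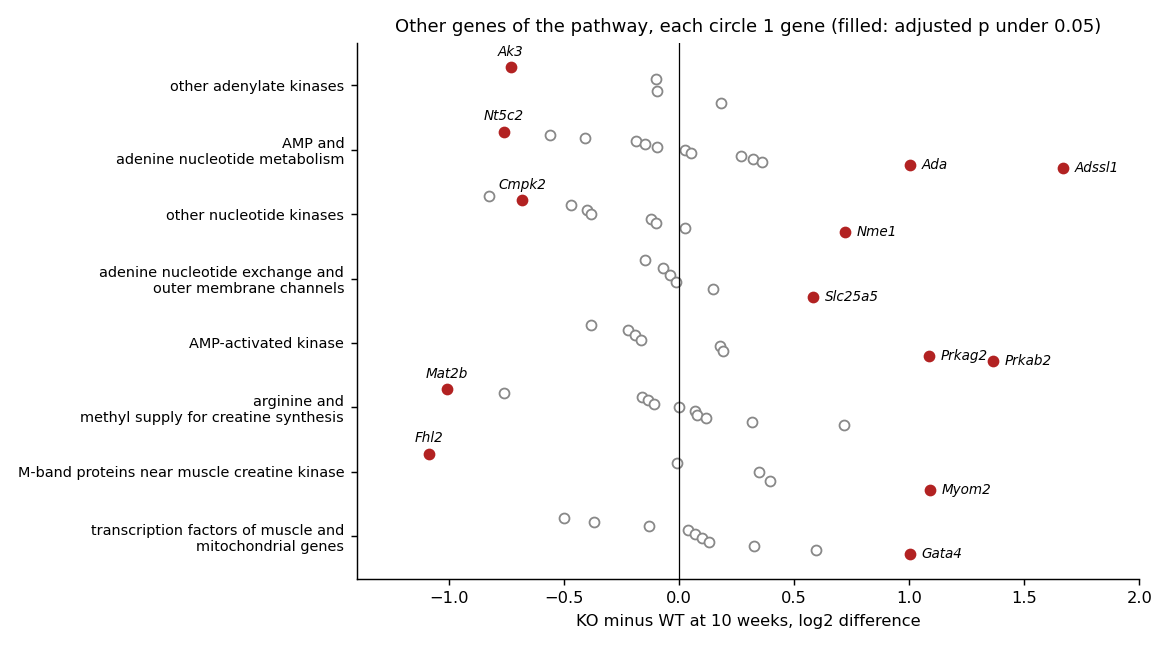
KO minus WT at 10 weeks as a log2 difference for 66 further genes in 8 lists, each circle 1 gene. Filled circles had an adjusted p under 0.05 and are named, 8 to the right of 0 and 5 to the left, with Adssl1 farthest at 1.67.

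Genes with the pattern most like that of a member over the 8 arrays were taken from 9068 genes by Pearson correlation, which carries no p. The correlation depends much on the 10-week KO pair. For Slc6a8 it also depends on the 10-week WT pair, the lowest of the 8 hearts at 9.0 and 9.30. For Ckm these were Ndufaf3 (r = 0.996), a complex I assembly factor, Timm21 (0.995), of the inner membrane import machinery, and Ndufs7 (0.992), a complex I subunit. For Ckmt2 they were Dhrs4 (0.995), a carbonyl reductase, Nfs1 (0.988), the cysteine desulfurase of iron-sulfur cluster assembly, and Mrps23 (0.984), a mitochondrial ribosomal protein. For Ckb they were Ep300 (0.991), a histone acetyltransferase, Foxo3 (0.986), a forkhead factor, and St3gal4 (0.977), a sialyltransferase. For Slc6a8 they were Tom1 (0.993), of endosomal sorting, Pa2g4 (0.992), a growth-related RNA-binding protein, and Eif3c (0.991), a translation initiation subunit. The 10-week differences of the first of each were -0.84 for Ndufaf3, -0.59 for Dhrs4, -0.61 for Ep300 and 1.06 for Tom1, beside -0.99, -0.36, -0.43 and 0.99 for the member each resembled.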

How the data were processed

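Total RNA was extracted with TRIzol and labelled with biotin for Affymetrix mouse arrays, per the labels' protocols. The deposited values were linear probe set intensities, processed by the authors with GCOS 1.3 and RMA according to the submitters' processing notes. The version of RMA is not given in the sources used here. RMA corrects background, equalises the arrays' distributions and summarises each probe set, and can compress differences of bright and of dim probe sets. Array medians lay between 34.3 and 37.4. No detection calls were used, and 2 arrays per group, each from a separately tagged mouse, limit the precision. No 2 arrays were identical.

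After log2, 64 control probe sets were left out, and 34945 of the remaining 45037 named 1 gene, 932 several and 9160 none. No probe set of several genes named a member. The brightest probe set stood for each of 18193 genes. One limma model (version 3.58.1, R 4.3.3) estimated the 4 group means from the 8 arrays, with 4 residual degrees of freedom. The code was run on data simulated with independent noise for each gene and array, which cannot speak to effects shared across an array. Tests were two-sided and adjusted by Benjamini-Hochberg over genes, or over 34945 probe sets where said. SE and intervals are limma's. Alternatives changed the probe set rule, filter, normalization, variance model, samples fitted or replicate block, or left out 1 array. The members and gene lists were chosen with earlier results of these data known. The text names all 9 members, up to 4 passing genes of each list at 10 weeks, and the 3 genes most like each of Ckm, Ckmt2, Ckb and Slc6a8 with a mean log2 of at least 6. Prkaa2, Slc25a4, Vdac1 and single markers were named after their values were seen. The 6 listed genes without a probe set of their own, and the deleted gene, are not analysed here. Promoters were matched by symbol for 8 of the 9 members.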

Additional observations from a re-analysis of the deposited data

Results flagged for a closer look

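The dimmer probe set of Ckmt1, 1417089_a_at, is singled out because its KO effect differed between the ages by 1.04 ± 0.18 on the log2 scale (adjusted p = 0.0312, limma over 34945 probe sets). At 4 weeks both KO hearts were below both WT hearts (-0.23 ± 0.13, adjusted p = 1), and at 10 weeks both were above (0.81 ± 0.13, adjusted p = 0.00427). The brighter probe set of the same gene gave 0.19 ± 0.29 for that difference (adjusted p = 0.861 over genes). Leaving out single arrays moved the value between 0.94 and 1.14 and the adjusted p between 0.0161 and 0.188, and it passed in 2 of 8 cases, those without a 10-week WT array. All 8 readings of this probe set lay between 3.84 and 5.07, near the lower end of the scale.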

How the results depend on the processing

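With 2 hearts per group only large differences can pass. Across 806 recomputed member differences, 758 kept their direction and side of the threshold, 17 gained and 10 lost a call, and 21 changed sign. Many of the 806 could not differ from the main value. With the replicate block, or with an array of a group outside the comparison left out, only the p can move. Ckm and Slc6a8 passed at 10 weeks in all 19 alternatives. With probe sets averaged per gene, Ckmt1 turned to -0.033 and Ak4 to -0.34 at 4 weeks, and Ak4 to -0.19 at 10 weeks. Without probe sets that can match several transcripts, Ak1 turned to 0.051 for KO against WT at 4 weeks and to 0.077 for age in WT, since only its dim probe set remained. Ckb and Ckmt1 then had no probe set left and were not tested, and 1 of the 7 members still measured, Ckm, passed for age in KO. With quantile normalization repeated, the difference between ages turned to 0.013 for Gatm and -0.015 for Ak4, and 1 member passed. Array weights gave 5 members for age in KO, and fitting only the 10-week arrays gave 8 of the further pathway genes. Leaving out 1 array gave 1 to 5 members for age in KO, 0 to 2 for the difference between ages, and 8 to 22 pathway genes at 10 weeks. The KO difference at 4 weeks then ran from -0.15 to 0.0032 for Ckmt2, -0.026 to 0.35 for Ckmt1, -0.10 to 0.25 for Gatm and -0.11 to 0.28 for Gamt. The difference between ages ran from -0.13 to 0.51 for Ckmt1, -0.18 to 0.16 for Gatm and -0.028 to 0.098 for Ak4, and age gave -0.027 to 0.21 for Gamt in WT and -0.27 to 0.083 for Gatm in KO. Where no construction is named, the cause was not tested.

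The labels do not say that replicate numbers pair the mice, and same-numbered hearts deviated together with r = 0.302 at 4 weeks and 0.23 at 10 weeks, over genes and with only 2 pairs an age. With the replicate block 1 member passed for the difference between ages (Slc6a8, 0.89, adjusted p = 0.0376) and 5 for age in KO, and Ak1 passed at 10 weeks (-0.46, adjusted p = 0.0474).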
